A study of Mus musculus with 9 samples.

Results

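Complement is a set of plasma and cell surface proteins that marks particles and dying cells for uptake and calls in immune cells. The genes described here are 8 of its components and regulators, *C1qa*, *C1qb*, *C1qc*, *C2*, *C3*, *C4b*, *Cfb* and *Serping1*. They were taken by symbol from a table of 56748 genes, each symbol named 1 row, and all 8 passed the filter on low counts that left 18510 genes to test. RNA was sequenced from epididymal adipose tissue of wild-type male C57BL/6J mice, whose high-fat diet (HFD) began at 8 weeks of age. Pre denotes 8 weeks of HFD, WL1 denotes 1 further week on standard diet (SD) and WL2 denotes 2 weeks on SD, with 3 libraries per phase. No group stayed on HFD, so time on SD and age cannot be told apart (16, 17 and 18 weeks of age). The labels do not say whether the libraries of a phase came from separate mice, and p-values measure only the spread between these libraries.

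The classical pathway begins when C1q, built from the chains of *C1qa*, *C1qb* and *C1qc*, binds a target and its attached proteases cut C4 and C2. The fragments form an enzyme that cleaves C3, the component on which all routes converge, and the alternative pathway makes its own C3-cleaving enzyme from factor B (*Cfb*). *Serping1* encodes the C1 inhibitor, which blocks the proteases attached to C1q. In adipose tissue macrophages are the known main source of C1q, and adipocytes are known for adipsin (*Cfd*), the protease that activates factor B.

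The libraries held 16434450 to 22729072 counted reads. Levels are given as CPM, read counts scaled to a common library size, after TMM scaling, and differences as log2 fold changes of the edgeR quasi-likelihood model with Benjamini-Hochberg adjusted p over the 18510 genes. Adipocyte markers summed to between 20340 and 35410 CPM per library, and epididymis markers to at most 0.462 CPM with *Lcn9* at 0, as labelled for this fat depot. The second library of Pre stood apart in B cell markers, at 208 CPM against 6.08 to 19.6 in the other 8, and in T cell markers, at 36.9 against 2.77 to 6.34. Mesothelial markers also varied widely, between 44.4 and 436 CPM at Pre, 49.7 and 262 at WL1, and 279 and 804 at WL2. In bulk tissue, fewer cells of a type and less RNA per cell cannot be told apart.

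The members fall into homologous groups, which the coding sequence shows. C2 and factor B are sister serine proteases, and their stretches around the active-site serine are printed because the 2 genes lie side by side and moved in opposite directions below. The stretches are from GENCODE M21 on GRCm38, minus strand, with 5 codons in capitals that include that serine. They lie within chr17:34863197-34863363 and chr17:34856898-34857022 and each crosses an intron, and 30 of 51 bases are identical.
C2: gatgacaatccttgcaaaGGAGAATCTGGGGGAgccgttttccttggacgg
Cfb: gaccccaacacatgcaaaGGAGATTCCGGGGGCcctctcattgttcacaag
C3 and C4 carry an internal thioester with which they attach to targets, and the codons around it, in capitals, are shown for the pair of members that were abundant and did not pass any test. Both stretches lie in 1 exon, at chr17:57215826-57215876 and chr17:34734463-34734513 on the minus strand, and 28 of 51 bases are identical.
C3: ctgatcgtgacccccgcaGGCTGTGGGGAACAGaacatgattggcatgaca
C4b: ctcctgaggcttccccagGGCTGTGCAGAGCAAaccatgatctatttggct
For the C1q chains, which within each phase were highest in the same library, promoter sequence of RefSeq (GRCm38.p6) was on hand for *C1qb* and *C1qc*, and 3 of the 8 members matched that table. Upstream of every annotated start, both hold ACTTCCT (in capitals), the reverse complement of AGGAAGT, a core motif of ETS factors such as the myeloid factor PU.1, at 47 and 38 bases before the start.
C1qb, chr4:136886217-136886283, minus strand: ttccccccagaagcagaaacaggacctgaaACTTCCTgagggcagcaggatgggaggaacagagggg
C1qc, chr4:136893073-136893139, minus strand: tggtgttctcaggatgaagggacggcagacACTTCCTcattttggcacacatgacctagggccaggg
The motif, searched on both strands and picked after the sequences were read, was in 9.35% of the 32851 promoter windows of 300 bases, and the window of *C3* did not hold these letters. A match of letters is a description and not a binding site.

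Between genes, levels are compared as FPKM, which are scaled by gene length. Over the 9 libraries *Serping1* had the highest mean FPKM of the 8 at 302, followed by *C3* at 281, *C1qb* at 276, *C4b* at 257, *C1qa* at 209 and *C1qc* at 106 FPKM. These 6 were among the most abundant transcripts of the tissue, at ranks 105 to 381 of 18510. *C2*, at 9.59 FPKM, ranked 4645, and *Cfb*, at 1.62 FPKM, ranked 11272. The order of the first 5 did not hold in every library, since *Serping1* exceeded *C3* in 6 of 9 libraries, *C3* exceeded *C1qb* in 5, *C1qb* exceeded *C4b* in 5 and *C4b* exceeded *C1qa* in 7. In all 9 libraries *C1qa* exceeded *C1qc*, *C1qc* exceeded *C2*, and *C2* exceeded *Cfb*. Both *C2* and, to a larger extent, *Cfb* share exons with another annotated gene, described below. How reads on those exons were assigned is not stated, so the ranks and the order of these 2 genes are uncertain.

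**Figure D1:**
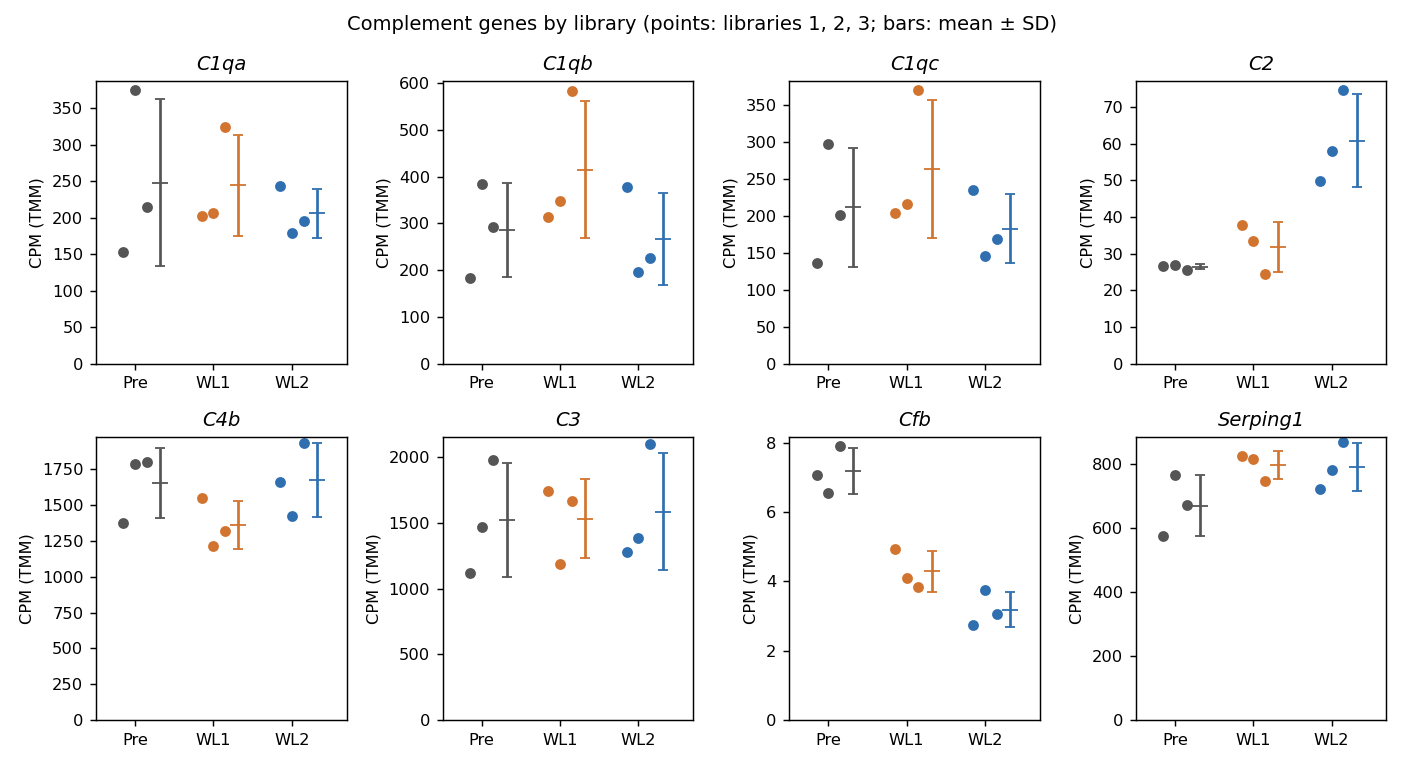
CPM after TMM scaling (y axis, from 0) of the 8 complement genes in the 3 phases; points are libraries 1, 2 and 3 from left to right and bars are mean ± SD. The WL2 libraries of C2 (49.7 to 74.5) lie above and those of Cfb (2.74 to 3.74) below the libraries of both other phases, while the phases of the other 6 genes overlap in at least 1 pair.

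*C2*, the protease that joins C4 fragments in the classical C3-cleaving enzyme, rose at WL2. Its CPM were 26.5, 26.95 and 25.7 at Pre, 37.8, 33.4 and 24.5 at WL1, and 49.7, 58.1 and 74.5 at WL2. The 3 WL2 libraries lay above the other 6, and the third of the WL1 libraries lay below the Pre libraries. Mean CPM (± SD, n = 3 each) were 26.4 ± 0.658 in Pre, 31.9 ± 6.78 in WL1 and 60.8 ± 12.6 in WL2 libraries. The difference was 2.30-fold at WL2 against Pre (log2 fold change 1.20, SE 0.18, edgeR adjusted p = 0.00252) and 1.90-fold at WL2 against WL1 (log2 0.93, SE 0.18, adjusted p = 0.0254). At WL1 against Pre it was 0.28 on the log2 scale (95% confidence interval -0.12 to 0.67, adjusted p = 0.379). The difference between WL2 and WL1 missed the threshold without the second or the third library of WL1 (adjusted p = 0.0736 and 0.0893), without the second or the third library of WL2 (0.107 and 0.0995) and with the replicate number as a block (0.0639).

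*Cfb*, factor B of the alternative pathway, fell. Its CPM were 7.08, 6.56 and 7.89 at Pre, 4.94, 4.09 and 3.82 at WL1, and 2.74, 3.74 and 3.07 at WL2, from 50 to 171 reads per library. In CPM the phases did not overlap, and every library of a later phase lay below every library of the earlier one. The gap between WL1 and WL2 was narrow, from 68 reads in the third WL1 library to 66 in the second WL2 library. In FPKM these libraries were equal at 1.254. Mean CPM (± SD, n = 3 each) were 7.18 ± 0.673 in Pre, 4.28 ± 0.584 in WL1 and 3.18 ± 0.510 in WL2 libraries. At WL2 the level was 0.444 times that at Pre (log2 -1.17, SE 0.20, edgeR adjusted p = 0.00544). At WL1 it was 0.597 times (log2 -0.74, SE 0.20, adjusted p = 0.0492), a value that missed the threshold without any 1 of the 6 libraries of these phases (adjusted p from 0.0575 to 0.163), without the second or the third library of WL2 (0.0618 and 0.0721) and with the replicate block (0.1). The difference of WL2 from WL1 was -0.43 (95% confidence interval -0.88 to 0.02, adjusted p = 0.260).

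*C2* and *Cfb* sit side by side on chromosome 17, at 35081580 to 35117241 and 35075350 to 35081494 on the minus strand in the authors' table, with 85 bases between them. For each read of *Cfb* the libraries held 3.25 to 4.11 reads of *C2* at Pre, 6.41 to 8.17 at WL1 and 15.5 to 24.3 at WL2. This ratio, formed after the values were seen, separated the phases without overlap. The annotation places a read-through gene, *Gm20547*, over both. Its exons cover 79.5% of the exonic bases of *Cfb* and 42.8% of those of *C2*, and its 2 transcripts both hold the *Cfb* stretch printed above and neither holds that of *C2*. Of windows of 100 bases along a representative annotated transcript of each gene, 81.5% of *Cfb* and 53.2% of *C2* occurred unchanged in *Gm20547*. The table gave *Gm20547* 0 reads in all 9 libraries. How reads on shared exons were assigned was stated in none of the sources at hand, so the level of *Cfb* in particular is uncertain. *C2* also shares 161 exonic bases with *Zbtb12* on the other strand, and the strand setting of the counting is not given.

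**Figure D2:**
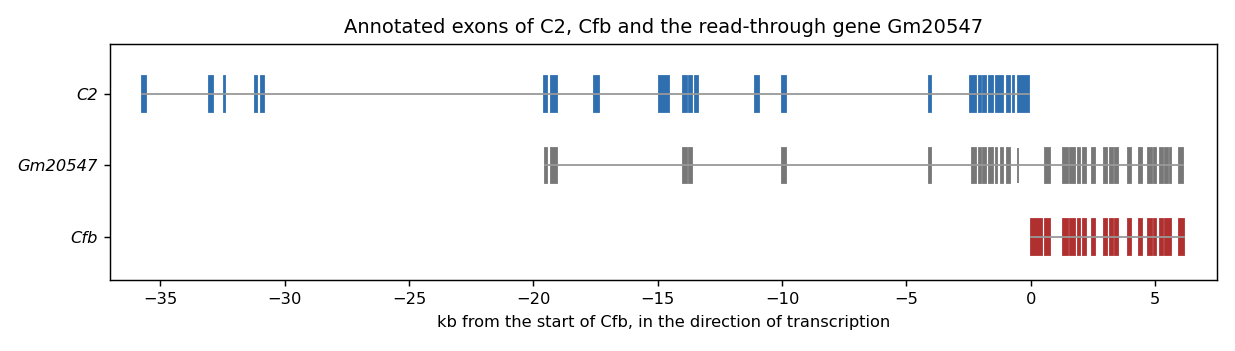
Exons of C2, Gm20547 and Cfb in GENCODE M21, drawn to scale in kb from the start of Cfb along the direction of transcription (x axis); boxes are exons and lines introns. Most Cfb exons coincide with exons of Gm20547, which also uses C2 exons, and 85 bases part C2 from Cfb.

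The mean of the summed mesothelial markers was highest at WL2, as was that of *C2*, and no mesothelial marker passed the test in any comparison of phases (8 of 8 tested, all higher at WL2 than at WL1 at an unadjusted p under 0.05). At Pre the marker sums were 44.4, 436 and 388 CPM, while *C2* was at 26.5, 26.95 and 25.7 CPM. At WL1 the markers were lowest in the second library and *C2* in the third, and at WL2 both were lowest in the first. The part of mesothelial cells in the level of *C2* was not tested. At WL2 against Pre, *C2* and *Cfb* passed the threshold in all 19 alternatives, with log2 fold changes of 1.03 to 1.36 for *C2* and -1.30 to -0.72 for *Cfb*, among them the fit that left out the second Pre library.

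No C1q chain passed the threshold in any comparison, and within each phase the chains were highest in the same library. The CPM of *C1qa* were 154, 375.5 and 215 at Pre, 203, 206 and 324 at WL1, and 244, 179 and 196 at WL2. Those of *C1qb* were 183, 384 and 292.5 at Pre, 314, 347 and 583 at WL1, and 378, 196 and 225 at WL2. Those of *C1qc* were 136.5, 297 and 202 at Pre, 203, 216 and 371 at WL1, and 234.5, 145 and 168 at WL2. In each chain the second library was the highest at Pre, the third at WL1 and the first at WL2, and the phases overlapped. Against Pre, the log2 difference at WL1 was -0.02 (95% confidence interval -0.68 to 0.64, edgeR adjusted p = 0.978) for *C1qa*, 0.53 (-0.20 to 1.26, adjusted p = 0.348) for *C1qb* and 0.31 (-0.37 to 1.00, adjusted p = 0.570) for *C1qc*. At WL2 against Pre the differences were -0.27, -0.10 and -0.21, with adjusted p of 0.611, 0.867 and 0.698. Without the second Pre library, which was high in C1q as well as in lymphocyte markers, the differences at WL1 against Pre were 0.41, 0.80 and 0.64 with adjusted p of 0.343, 0.205 and 0.239.

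The ratios between the chains were also compared. The FPKM ratio of *C1qb* to *C1qa* was 0.977 to 1.30 at Pre, 1.48 to 1.72 at WL1 and 1.05 to 1.48 at WL2. That of *C1qc* to *C1qa* was 0.426 to 0.505 at Pre, 0.539 to 0.615 at WL1 and 0.437 to 0.517 at WL2. In both ratios the 3 WL1 libraries lay above all Pre libraries. The ratios were formed after the values were seen, so they are a description. In a two-sided exact permutation test the smallest p that 3 against 3 libraries can give is 0.1. Both ratios were at that p at WL1 against Pre, as was *C1qc* to *C1qa* at WL2 against WL1, and the rest of the 6 comparisons were above it. With this floor the tests cannot decide whether the ratios changed.

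Macrophage markers had the same order of libraries at the top. The summed CPM of 10 macrophage markers were 1508, 2701 and 2401 at Pre, 3062, 3670 and 6014 at WL1, and 3345, 1682 and 1799 at WL2, so that the library highest in these markers within each phase was also the highest in *C1qa*, *C1qb* and *C1qc*. With ties not counted, this held for 7 of the 48 complement genes tested, namely the C1q chains, *Cfp*, *C7*, *Itgax* and *Itgb2*. The share over all genes tested is not given, so this count is a description only. At WL1 against Pre, the median log2 fold change of the 10 markers was 0.99, 0 of 10 passed the threshold with edgeR and 6 had an unadjusted p under 0.05. The mean log2 CPM of the 3 chains minus that of the 10 markers was 1.47, 1.91 and 1.40 at Pre, 1.04, 1.01 and 1.04 at WL1, and 1.32, 1.33 and 1.54 at WL2. The WL1 libraries lay below the other 6. On this log2 scale the phase means (± SD, n = 3 libraries) were 1.60 ± 0.28 for Pre, 1.03 ± 0.02 for WL1 and 1.40 ± 0.13 for WL2, so that C1q relative to the markers was 0.57 lower at WL1 than at Pre and 0.37 lower than at WL2. No p-value is given for this score, since the members were not chosen independently of these data.

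**Figure D3:**
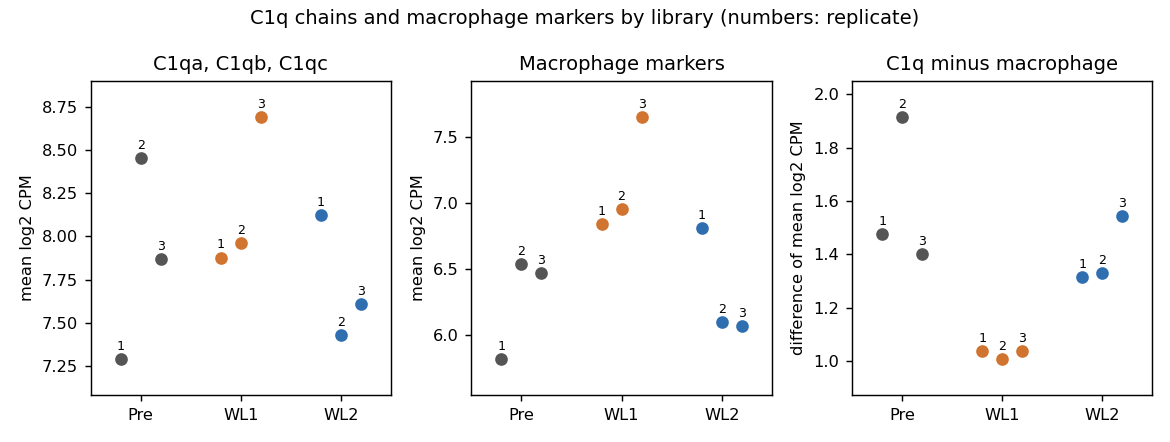
Mean log2 CPM of the 3 C1q chains (left), of 10 macrophage markers (middle) and their difference (right) in each library, with the replicate number above each point. The second Pre, the third WL1 and the first WL2 libraries are the highest of their phases in the left and middle panels, and the WL1 libraries (1.01 to 1.04) are the lowest in the right panel.

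Of 6 markers of lipid-associated macrophages, known to take up lipid in obese fat, 4 rose at WL1 against Pre, where 2.60% of all genes tested did. The median log2 fold change of the 6 was 1.66. Their summed CPM was 879 to 1454 at Pre, 3056 to 6918 at WL1 and 1014 to 3541 at WL2. *Trem2*, a lipid receptor of this list, was 1.83 higher on the log2 scale (SE 0.49, edgeR adjusted p = 0.0490). Of 6 markers of resident macrophages 0 passed the edgeR threshold, 2 had an unadjusted p under 0.05, and the median was -0.57. *Folr2*, of the resident list, was the gene whose pattern over the 9 libraries was most like that of *C1qa*. The list as a whole did not share this pattern throughout. At WL1 its summed CPM and *C1qa* were both highest in the third library. At WL2 the sum was lowest in the first library, at 339.5 CPM, where *C1qa* was highest. The difference between the lists, and the part of either cell type in the level of C1q, was not tested.

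*C4b*, the C4 gene that encodes the classical pathway component, was abundant and passed no test. Its CPM were 1376, 1788 and 1801 at Pre, 1548, 1216 and 1322 at WL1, and 1662, 1423 and 1937 at WL2. The WL1 values lay mostly below the others, and the phases overlapped. The log2 difference from Pre was -0.28 at WL1 (95% confidence interval -0.63 to 0.07, edgeR adjusted p = 0.305) and 0.02 at WL2 (-0.33 to 0.37, adjusted p = 0.958). Its paralog *C4a* had 13 to 43 reads per library, and 16.5% of windows of 100 bases of *C4b* occur unchanged in *C4a*, so a small part of their reads may be shared.

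*C3*, on which the pathways converge, passed no test. Its CPM were 1119, 1467 and 1979 at Pre, 1743, 1188 and 1666 at WL1, and 1277, 1383 and 2102 at WL2. The libraries of each phase spanned nearly the same range. The log2 difference from Pre was 0.01 at WL1 (95% confidence interval -0.54 to 0.56, edgeR adjusted p = 0.986) and 0.06 at WL2 (-0.49 to 0.61, adjusted p = 0.901). Within each phase the library lowest in mesothelial markers was also the lowest in *C3*. With ties not counted, this held for 6 of the 48 complement genes tested, and the share over all genes is not given. The same libraries were the lowest in the summed CPM of hepatocyte markers and of resident macrophage markers. They were also the lowest in the mean log2 CPM of 8 fibroblast markers, although at WL2 the summed CPM of these was lowest in the second library. *C3* and hepatocyte markers shared the highest library of each phase as well, while at Pre mesothelial markers were highest in the second library and *C3* in the third. The part of any of these cell types in the level of *C3* was not tested.

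*Serping1*, the C1 inhibitor, passed no test. Its CPM were 574, 766 and 670.4 at Pre, 826, 815 and 747 at WL1, and 721, 780 and 869 at WL2. The first Pre library was the lowest of all 9, and the phases overlapped. The log2 difference from Pre was 0.25 at WL1 (95% confidence interval -0.04 to 0.54, edgeR adjusted p = 0.270) and 0.24 at WL2 (-0.05 to 0.53, adjusted p = 0.277).

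By count, 1 of 8 members passed the threshold at WL1 against Pre, where 7.29% of all genes tested did, and its direction was down (4.69% of all genes were called lower and 2.60% higher). At WL2 against Pre 2 of 8 passed, 1 up and 1 down, against 10.0% of all genes (3.35% up and 6.66% down). At WL2 against WL1 1 of 8 passed, upward, against 3.68% of all genes (1.31% up and 2.37% down). Both comparisons with Pre share the Pre libraries. In a contrast of WL1 with the mean of Pre and WL2, for genes that move in the first week and return, 0 of 8 passed with edgeR, 0 had an unadjusted p under 0.05, and 0 passed with DESeq2 or with limma, against 4.58% of all genes (2.81% up and 1.77% down). The median log2 fold change of the 8, each against Pre, was 0.13 at WL1 and -0.04 at WL2, beside 0.02 and 0.01 over all genes. Scaling by library totals alone raised the median of all genes to 0.12 and 0.16, and under it *C2* at WL2 was 1.36 and *Cfb* -1.02.

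**Figure D4:**
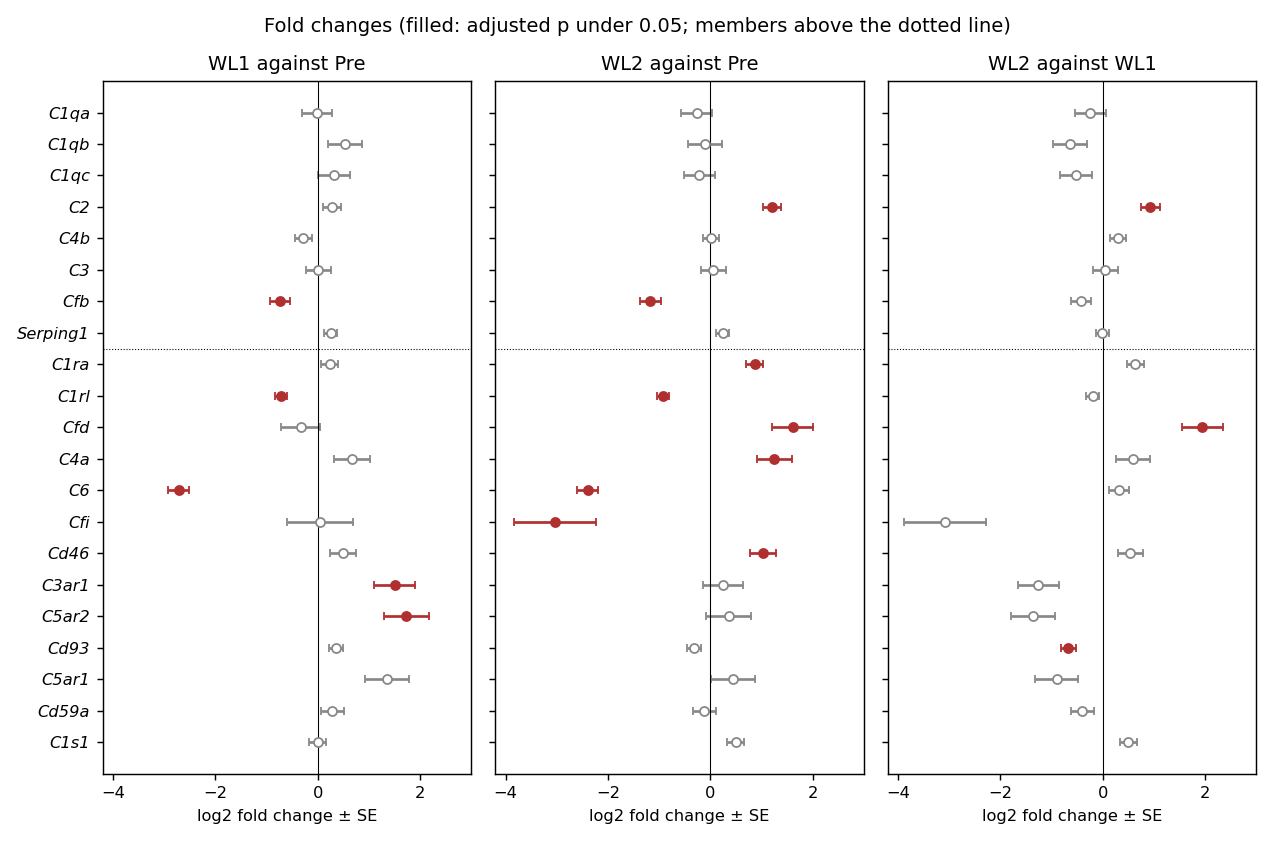
Log2 fold change ± SE (x axis) of the 8 members, above the dotted line, and of 13 other named complement genes in the 3 comparisons of phases; filled red points passed an adjusted p of 0.05. Among the members only C2 and Cfb are filled, and C6 has the lowest value at WL1 against Pre (-2.72).

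Of 51 other complement genes listed, 40 were tested. At WL1 against Pre 2 rose and 2 fell, at WL2 against Pre 4 rose and 3 fell, and at WL2 against WL1 1 rose and 1 fell. Over all genes tested, 7.29%, 10.0% and 3.68% were called in these comparisons, so that 4, 7 and 2 of 40 are to be read against those shares. Their medians were -0.0021 and -0.07 on the log2 scale against Pre at WL1 and WL2.

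Of 9 tested recognition molecules and initiating proteases, *C1ra*, the C1r protease attached to C1q, rose at WL2. Its CPM were 69.2, 105 and 89.9 at Pre, 113.5, 91.6 and 104.5 at WL1, and 140.0, 162 and 179 at WL2, with the WL2 libraries above the other 6. Against Pre, its log2 fold change at WL2 was 0.87 (SE 0.16, edgeR adjusted p = 0.00821). *C1rl*, a related protease, fell at both times, from 25.4 to 27.9 CPM at Pre to 15.5 to 16.7 at WL1 and 12.7 to 15.6 at WL2 (log2 -0.73 and -0.93, SE 0.12 each, adjusted p = 0.00644 and 9.32e-04). *C1s1*, the C1s protease, was at 0.49 at WL2 against Pre (SE 0.17, adjusted p = 0.0988). The calls of *C1ra* at WL2 and of *C1rl* held in all 19 alternatives. Within each phase *C1ra* and *C1s1* were lowest in the library lowest in mesothelial markers. That library was also the lowest in summed hepatocyte and resident macrophage markers, and in the mean log2 CPM of fibroblast markers. The highest library of each phase was shared by *C1ra* and mesothelial markers, and by *C1s1* and hepatocyte markers. The part of these cells was not tested.

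Of 3 other activation components, *Cfd*, adipsin, had a mean of 2156 FPKM over the libraries, above all 8 members, and rose at WL2. Its CPM were 1807, 1326 and 815 at Pre, 1230, 1439 and 458 at WL1, and 3161, 4393 and 4466 at WL2. The WL2 libraries lay above the other 6, and the third WL1 library was the lowest. The log2 fold change was 1.61 against Pre (SE 0.40, edgeR adjusted p = 0.0299) and 1.94 against WL1 (SE 0.40, adjusted p = 0.0311), and each call was lost in 7 of 19 alternatives, among them both limma fits and leaving out the second or the third WL2 library. *C4a* was called higher at WL2 (log2 1.25, SE 0.34, adjusted p = 0.0456) at 0.716 to 2.49 CPM, a call lost in 14 alternatives. *Cfp*, properdin, which stabilizes the alternative enzyme, was at 0.00 and -0.26 on the log2 scale (adjusted p = 0.996 and 0.615).

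Of 5 tested terminal components, which build the membrane pore, *C6* fell at both times. Its CPM were 41.2, 37.1 and 46.5 at Pre, 6.79, 5.33 and 6.92 at WL1, and 6.41, 6.86 and 10.4 at WL2. Every Pre library was above 37 CPM and every later one below 11, and the log2 fold change was -2.72 at WL1 (SE 0.20, edgeR adjusted p = 2.62e-04) and -2.40 at WL2 (SE 0.20, adjusted p = 7.14e-05). *C7*, the next component to join the pore, was at -0.26 and -0.06 (SE 0.28 each, adjusted p = 0.623 and 0.910).

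Of 7 tested soluble regulators 1 was called. *Cfi*, factor I, which cuts C3b and C4b, had 14, 15 and 37 reads at Pre, 23, 12 and 30 at WL1, and 5, 0 and 2 at WL2 (log2 -3.04 against Pre, SE 0.80, edgeR adjusted p = 0.0389, lost in 7 alternatives). Hepatocyte markers summed to 8.43 to 95.3 CPM at Pre, 2.94 to 89.1 at WL1 and 3.72 to 6.43 at WL2, and their part was not tested. Of 7 tested membrane regulators, *Cd46* rose at WL2 at 2.15 to 6.06 CPM (log2 1.03, SE 0.25, adjusted p = 0.0269, lost in 7 alternatives), and it shares 1079 exonic bases with genes of the other strand. *Cd59a*, the most abundant of them, which blocks the pore, was at 0.28 and -0.12 (SE 0.22 each, adjusted p = 0.474 and 0.769).

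Of 9 receptors, 7 had their highest mean CPM at WL1, among them those of the small fragments C3a and C5a, the integrin chains *Itgam*, *Itgax* and *Itgb2*, and *Cd93*. At WL1 against Pre 2 of the 9 passed the threshold, *C3ar1* and *C5ar2*, where 7.29% of all genes tested did. *C3ar1*, the C3a receptor, had 35.9, 68.7 and 75.3 CPM at Pre, 134.5, 136.5 and 239.9 at WL1, and 117, 46.3 and 49.2 at WL2. *C5ar2*, a C5a receptor, had 4.66, 4.52 and 7.38 CPM at Pre, 15.04, 15.06 and 24.9 at WL1, and 13.1, 3.85 and 4.40 at WL2. For both genes the WL1 libraries lay above the other 6, and the first WL2 library, the highest of its phase in macrophage markers, stood closest to them. The log2 fold changes at WL1 against Pre were 1.504 (SE 0.40, edgeR adjusted p = 0.0492) and 1.72 (SE 0.44, adjusted p = 0.0417), calls lost in 11 and 8 alternatives. *C5ar1*, the other C5a receptor, was at 1.35 (SE 0.43, adjusted p = 0.0872). *Cd93* fell at WL2 against WL1 (log2 -0.68, SE 0.14, adjusted p = 0.0333, lost in 6 alternatives). *C5ar2* shares 127 exonic bases with *Gm26473*. Of the 10 macrophage markers given above, 0 passed the threshold at WL1 against Pre and 9 had a positive log2 fold change, and their part in the receptor levels was not tested.

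**Figure D5:**
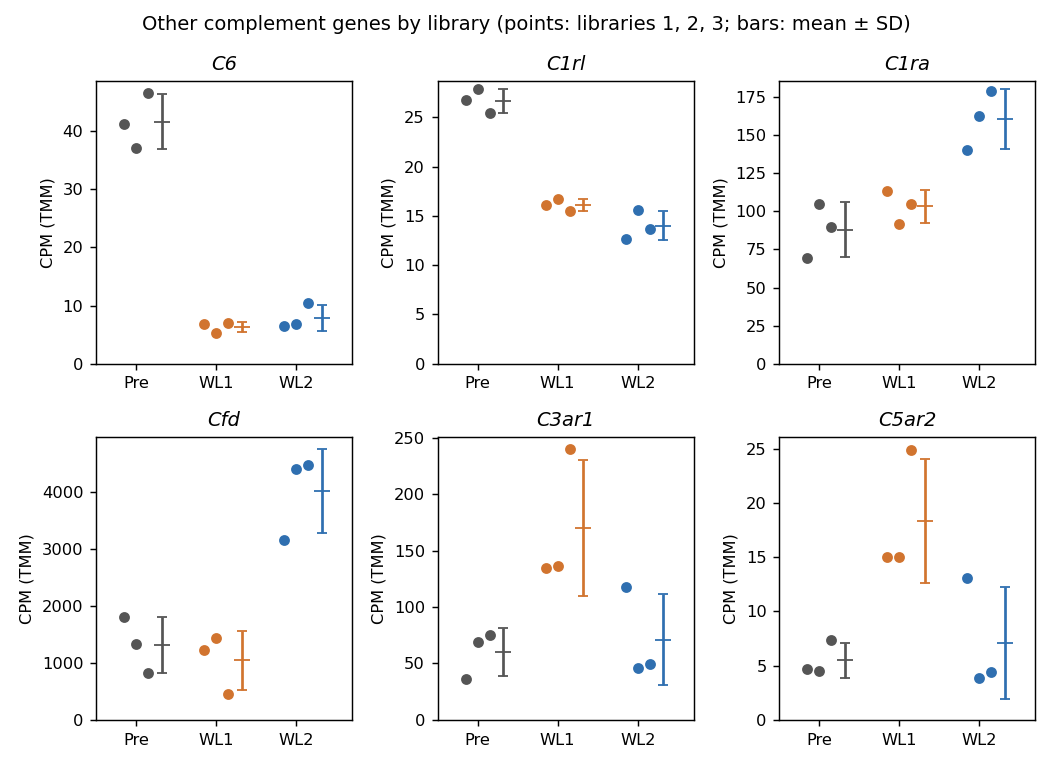
CPM after TMM scaling (y axis, from 0) of 6 other complement genes in the 3 phases; points are libraries 1, 2 and 3 from left to right and bars are mean ± SD. C6 is above 37 CPM in each Pre library alone, C1ra and Cfd are highest in the WL2 libraries, and C3ar1 and C5ar2 in the WL1 libraries.

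Genes of the acute phase response, which induces several complement genes in the liver, were listed for comparison. Of 8 tested, 5 fell at WL1, and at WL2 4 fell and 1 rose, each against Pre. Over all genes tested, 4.69% fell at WL1, and at WL2 6.66% fell and 3.35% rose. *Hp*, haptoglobin, fell from 3983 to 5745 CPM at Pre to 1328 to 2155 at WL2 (log2 -1.47, edgeR adjusted p = 0.00186), and *Lbp*, which binds bacterial lipopolysaccharide, from 645 to 813 CPM to 158 to 186 (log2 -2.11, adjusted p = 2.03e-05). Of 12 interferon response genes, 0 passed the threshold with edgeR in the 3 comparisons, with 3, 4 and 0 at an unadjusted p under 0.05. *Gbp2* was at -0.30 and *Irf1* at 0.32 on the log2 scale at WL2 against Pre (adjusted p = 0.192 and 0.1997).

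For each member the genes of most similar pattern were sought among 13055 others, by the root mean square difference of centred log2 CPM over the 9 libraries. For *C1qa* it was *Folr2* (0.12 on the log2 scale), for *C1qb* it was *Gnpda1* (0.10), and for *C1qc* it was *Arhgdib* (0.12) with *C1qb* second of 13055. The nearest to *C2* was *Plagl1* (0.13), to *C3* it was *Stk35* (0.14), to *C4b* *Slc7a6* (0.11), to *Cfb* *C130074G19Rik* (0.12) and to *Serping1* *Usp22* (0.06). Outside the C1q chains no member was close to another, since the best rank of a fellow member was 162, that of *C4b* for *C3*.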

How the data were processed

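Epididymal adipose tissue RNA of 9 mouse libraries was analysed, grouped by the sample labels. The authors deposited whole-number counts per gene, without normalization, and FPKM per gene, scaled by gene length and library. The submitters' processing notes name CASAVA, HISAT, HISAT2, TopHat2, GRCm38 and mm10. The counting program, annotation and strand setting were stated in none of the sources at hand. Of 52073 genes shared with GENCODE M21, 1472 had the same coordinates, so table coordinates carry no build. Genes reaching 0.5 CPM in any 1 library entered edgeR 4.0.16 under R 4.3.3 (TMM, glmQLFit, glmQLFTest, 1 model of 9 libraries, no covariates), Benjamini-Hochberg threshold 0.05. Log2 CPM used a prior count of 4. The members, lists, tests and alternatives were chosen with earlier results of these data known. Named genes are the 8 members, listed complement genes past the threshold in any comparison of phases, *C4a*, *Cfd*, *C3ar1*, *C5ar1*, the 3 other complement genes with the highest mean FPKM, the genes nearest in pattern (protein-coding, mean of at least 1 CPM), and the 2 most abundant genes of the lists of responses. *Cfp*, *C7*, *Itgam*, *Itgax*, *Itgb2* and *Trem2*, the chain ratios, the ratio of *C2* to *Cfb* reads and the promoter motif were added after their values were seen. Alternatives were other filters, RLE factors, library totals, DESeq2 1.42.0, limma 3.58.1 on log2(FPKM + 1) and log2(FPKM + 0.1), the replicate block, the compared phases alone and each library left out, and, chosen after seeing the data, leaving out the second Pre and first WL2 libraries together. No pair of libraries of a phase matched within sampling noise (chi-square over its degrees of freedom, 9.88 to 53.8). On simulated counts of 18510 genes (WL1 against Pre), 54 of 100 genes changed 2-fold and 90 of 100 changed 4-fold were recovered. Of the genes called there, 7.1% had not been changed.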

Additional observations from a re-analysis of the deposited data

How the results depend on the processing

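At WL2 against Pre, the count of 2 members past the threshold and its genes, *C2* and *Cfb*, held in all 19 alternatives. The single call at WL1 against Pre (*Cfb*) became 0 without a filter, with library totals alone, with the replicate block and with the compared phases alone, and was 0 to 1 when 1 library was left out, being kept only without the first WL2 library. The single call at WL2 against WL1 (*C2*) became 0 with the replicate block and was 0 to 1 when 1 library was left out. In the contrast of WL1 with the mean of Pre and WL2 the count of 0 became 1 (*C1qb*, log2 0.89, adjusted p = 0.0426) when the second Pre and the first WL2 libraries were both left out, a choice made after seeing the data. C1q relative to macrophage markers kept its direction in all 12 alternatives (-0.66 to -0.41 at WL1 against Pre, -0.30 to -0.04 at WL2 against Pre, 0.29 to 0.41 at WL2 against WL1). Several of these could not change it. Leaving out a library of the phase not compared, and the replicate block, return the same difference of means. Library size nearly cancels within a library, so library totals alone could hardly move it. The counts of all genes moved more, from 1350 to between 512 and 2344 at WL1 against Pre, from 1853 to between 743 and 2717 at WL2 against Pre, from 681 to between 37 and 1935 at WL2 against WL1, and from 848 to between 11 and 1949 in the contrast, the highest each time with DESeq2 and the lowest each time without 1 library. The replicate block gave 844, 1399, 330 and 272. The causes were not tested. Same-numbered libraries had correlations of deviations of -0.28 to 0.11 over 9 pairs, and 0 of 9 libraries correlated best with their own number, so the numbers were not taken as pairing. The contrast was not fitted with the compared phases alone, since it uses all 3. Changes of *Cfb*, *C4a* and *Cfi*, at few reads, are measured with wide counting error.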
